A study of Mus musculus with 8 samples.

Results

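The nitric oxide and cyclic GMP genes examined here were the 3 nitric oxide synthases *Nos1*, *Nos2* and *Nos3*, the adaptor *Nos1ap*, the kinases *Prkg1* and *Prkg2*, the phosphodiesterase *Pde5a* and the arginine-recycling enzyme *Ass1*. These 8 genes were taken by symbol from the 27179 genes counted in PD10 (postnatal day 10) mouse uteri, and all 8 were among the 16658 genes with enough reads to be tested. *Nos1* was selected on its measured fall in the *Ezh2 Amhr2*-Cre cKO uteri, so its values are given as a description without a test, while the other 7 were listed by name, with earlier results of these data known. The study compared whole uteri of 4 control mice, which carried the floxed *Ezh2* allele (*Ezh2* f/f) without Cre, with whole uteri of 4 cKO mice carrying the same floxed allele and *Amhr2*-Cre (labelled Ezh2 f/f; Acre), to examine the role of EZH2, the methyltransferase of the Polycomb repressive complex, in uterine gland formation. Both genotypes thus shared the floxed allele and the age of 10 days. *Amhr2*-Cre is active in the mesenchyme of the female reproductive tract and not in its epithelium, and whole uterus holds both. The libraries held 25287141 to 36685807 assigned reads, and a count of 3 in a library corresponded to 0.0824 to 0.117 CPM (counts scaled to library size). *Ezh2* itself, counted over the whole gene in whole uterus, measured 45.0 ± 8.70 CPM in the controls and 36.8 ± 4.41 CPM in the cKO group (mean ± SD of 4 mice), and the libraries overlapped (log2 fold change −0.29, SE 0.13, adjusted p = 0.247, edgeR quasi-likelihood test), so gene counts do not check the genotype labels here. Of the cKO libraries, replicate 4 stood apart. Its mean chi-square per gene was 12.4 and 14.8 against control replicates 4 and 3 and 18.8 to 21.1 against the other cKO libraries. Those were at 8.02 to 15.2 among themselves. The controls varied as widely, at 7.78 to 22.2 among themselves. Control replicate 2 was at 22.2 and 21.9 against control replicates 3 and 4, and at 21.2 against cKO replicate 1. Without cKO replicate 4, 357 genes in place of 217 were past both thresholds described below. Fits that left out 1 library, here and below, filtered on reads in at least 3 libraries in place of 4.

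Nitric oxide is made from arginine by nitric oxide synthases, with citrulline as the by-product that ASS1 and ASL turn back into arginine. In the neighbouring smooth muscle cell, nitric oxide binds soluble guanylate cyclase, which makes cyclic GMP (cGMP), and natriuretic peptides raise cGMP through receptors that are guanylate cyclases themselves. cGMP activates the kinases encoded by *Prkg1* and *Prkg2* until phosphodiesterases break it down, and in the uterus this pathway is known for relaxing vessels and myometrium.

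The start-site windows of *Nos1*, the synthase that differed most, and of *Pde5a*, the most abundant of the 8 transcripts, are printed as a window near the median number of CG dinucleotides, in which CpG island promoters are rich, and one well above it. Each runs from 250 bases before to 50 bases after the RefSeq start, 5′ to 3′ on the plus strand of GRCm38.p6, with every CG in capitals, at chr5:117866589-117866888 for *Nos1* and chr3:122728908-122729207 for *Pde5a*.
Nos1: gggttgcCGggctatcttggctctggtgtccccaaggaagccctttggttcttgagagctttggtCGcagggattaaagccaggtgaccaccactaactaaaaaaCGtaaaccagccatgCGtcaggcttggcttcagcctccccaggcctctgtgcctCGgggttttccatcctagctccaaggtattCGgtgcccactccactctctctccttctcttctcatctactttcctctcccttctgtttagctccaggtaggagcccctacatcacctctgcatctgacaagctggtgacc
Pde5a: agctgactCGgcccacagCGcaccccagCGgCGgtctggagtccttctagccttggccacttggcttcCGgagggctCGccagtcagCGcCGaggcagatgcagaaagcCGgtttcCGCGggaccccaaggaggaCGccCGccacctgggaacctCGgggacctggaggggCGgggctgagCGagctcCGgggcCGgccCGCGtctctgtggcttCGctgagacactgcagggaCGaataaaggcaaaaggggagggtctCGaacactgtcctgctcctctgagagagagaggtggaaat
The *Nos1* window held 6 CG dinucleotides and was 54.7% G or C, and 56.4% of the 32851 RefSeq windows of the same length held as many or more. The *Pde5a* window held 23 CG dinucleotides and was 66.3% G or C, and 21.5% of windows held as many CG or more. The median window held 7. Of the 8 genes, 5 had a window in the table, and CG number did not separate *Nos1* from the others: *Nos1ap* had windows with 5 and 39, *Prkg1* with 20 and 10, and *Ass1* with 27. No methylation or histone data were analysed here, so these windows are a description of the sequence alone.

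Of the 8 genes, *Nos1* and *Prkg2* were lower in cKO uteri, and the other 6 did not pass the test. The fall in *Nos1* was from a low level to nearly no reads, and *Prkg2* fell by 51.5%. Over all genes tested, 1.30% were past both thresholds of the study (fold change over 2 and adjusted p under 0.05), with 0.636% lower and 0.666% higher in cKO, and the median log2 fold change was 0.00. Because *Nos1* was picked for its fall, the count of members past the thresholds says nothing beyond *Prkg2*, and the p-values of *Prkg2* are not independent of the choice of genes.

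*Nos1*, the neuronal nitric oxide synthase, lies on chromosome 5 (GRCm38, 117866839 to 117958840, plus strand). It was at 1.80, 1.78, 1.28 and 1.18 CPM in control replicates 1 to 4 and at 0.272, 0.0335, 0.0924 and 0.0701 CPM in cKO replicates 1 to 4. The reads behind these values numbered 57, 46, 36 and 43 in control and 7, 1, 3 and 2 in cKO libraries. The genotypes did not overlap, and 3 of the 4 cKO libraries were at or under 3 reads. The fitted log2 fold change was −3.70 (SE 0.42). Summed over libraries, 182 control reads stood against 13 cKO reads, a ratio of 13.4-fold with a 95% interval of 7.63 to 25.6 that covers counting error only, and the cKO level was 7.47% of control. Replicate 1 held 7 of the 13 cKO reads, and without it the fitted log2 fold change was −4.43, while without replicate 4 it was −3.53. In whole uterus, fewer cells of a type and less RNA per cell cannot be told apart. An antisense RNA, *Gm26995*, shares exon sequence with *Nos1* and was not in the count files, and the strand setting of the counting is not given in the sources used here.

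Neither of the other synthases passed the test. *Nos2*, the inducible enzyme of activated immune cells, was at 8.17, 8.36, 6.78 and 6.62 CPM in the controls and 7.22, 8.50, 7.12 and 6.58 CPM in the cKO group, and the libraries overlapped throughout. Its log2 fold change was −0.02 (95% interval −0.29 to 0.25, adjusted p = 0.941, edgeR quasi-likelihood test). *Nos3*, the endothelial enzyme, was at 15.6, 19.2, 15.6 and 14.7 CPM in the controls and 22.3, 23.2, 17.3 and 15.1 CPM in the cKO group. cKO replicates 1 and 2 were above every control, whereas replicates 3 and 4 lay within the control range. The log2 fold change of *Nos3* was 0.26 (95% interval −0.04 to 0.56, adjusted p = 0.297, edgeR quasi-likelihood test), and the upper bound corresponds to a rise of 1.47-fold. Without cKO replicate 4 its log2 fold change was 0.37 (adjusted p = 0.0700, edgeR quasi-likelihood test). *Nos3* shares exon sequence with *Atg9b* on the opposite strand, and reads of the pair could be split.

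**Figure D1:**
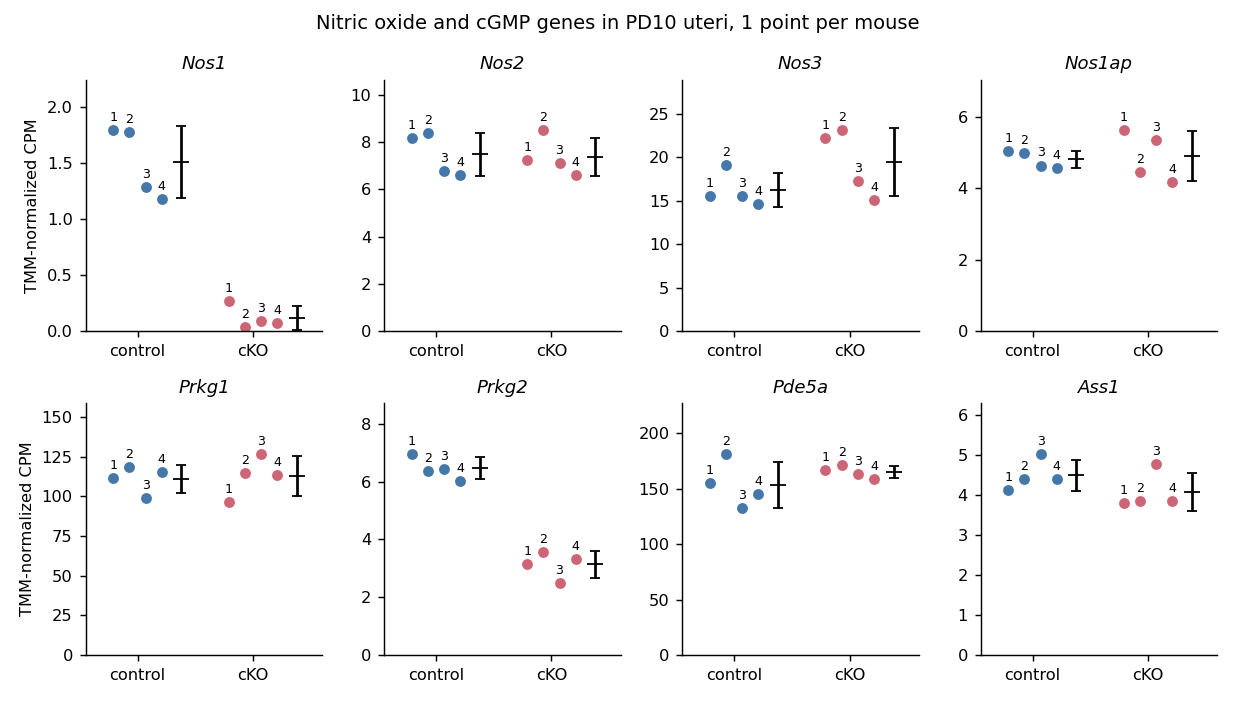
TMM-normalized CPM (linear axis from 0) of the 8 nitric oxide and cGMP genes, 1 point per mouse with its replicate number (control left, cKO right) and black bars for mean ± SD of 4. In *Nos1* and *Prkg2* all 4 cKO points lie below all 4 control points, and in the other 6 panels the groups overlap.

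Levels between genes were compared as CPM per kilobase of exon. In control uteri the order was *Pde5a* (15.6), *Prkg1* (10.2), *Nos3* (3.94), *Ass1* (1.86), *Nos2* (1.70), *Prkg2* (1.20), *Nos1ap* (0.663) and *Nos1* (0.135). *Ass1* and *Nos2* overlapped across libraries in this measure, and the other neighbours in the order did not overlap. In cKO uteri *Prkg2* (0.584 ± 0.0864) lay next to *Nos1ap* (0.676 ± 0.0970), and their libraries overlapped. *Nos1* was the least abundant of the 8 genes in both genotypes.

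The 3 synthases summed to 5.77 ± 0.671 CPM per kilobase in the controls and 6.39 ± 1.10 in cKO. *Nos1* made up 2.05% to 2.78% of this sum in control libraries and 0.0398% to 0.345% in cKO libraries. *Nos3* made up 68.3% ± 2.03 and *Nos2* 29.4% ± 1.75 in control, against 73.5% ± 2.45 and 26.4% ± 2.53 in cKO (SD, n = 4 each).

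**Figure D2:**
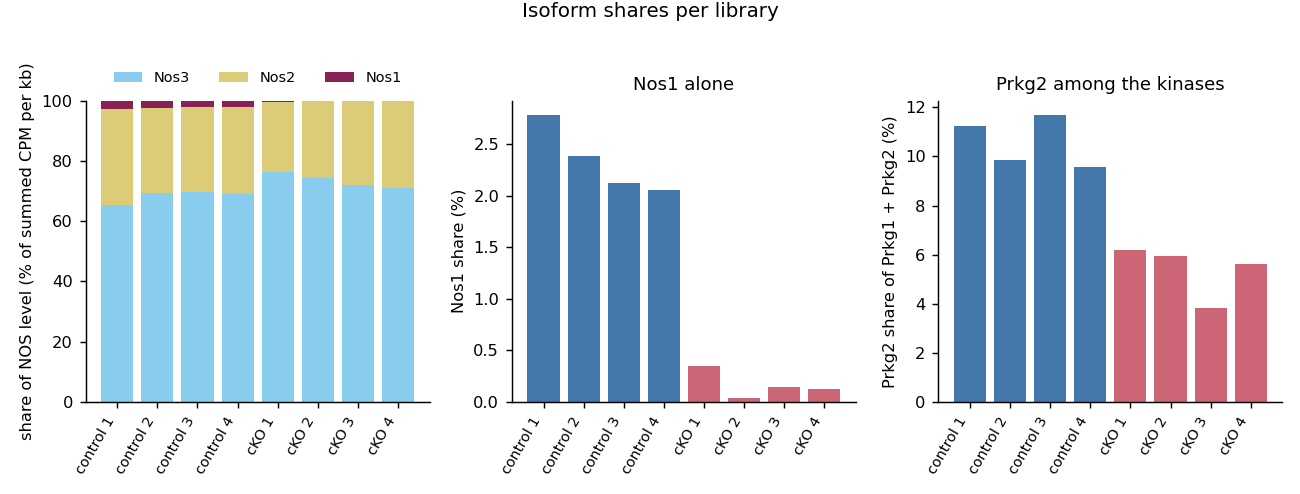
Left and middle, share in percent of each synthase in the summed CPM per kilobase of *Nos1*, *Nos2* and *Nos3*, by library, with the *Nos1* share redrawn on its own axis. Right, *Prkg2* as percent of *Prkg1* plus *Prkg2*, by library; every cKO bar (3.83% to 6.20%) is below every control bar (9.56% to 11.7%).

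*Nos1ap* encodes an adaptor that binds the PDZ domain of NOS1. It was at 5.05, 4.99, 4.64 and 4.56 CPM in the controls and 5.63, 4.45, 5.36 and 4.17 CPM in the cKO group. These libraries overlapped, with a log2 fold change of 0.03 (95% interval −0.26 to 0.32, adjusted p = 0.929, edgeR quasi-likelihood test). The same-strand gene *Gm7694* shares exon sequence with it in GENCODE M21, whereas in RefSeq *Gm7694* ends 9135 bases before *Nos1ap*. *Ass1*, which joins citrulline and aspartate, was at 4.13, 4.41, 5.03 and 4.39 CPM in the controls and 3.81, 3.85, 4.77 and 3.85 CPM in the cKO group, where replicate 3 stood apart from the other 3. Its log2 fold change was −0.14 (95% interval −0.43 to 0.15, adjusted p = 0.587, edgeR quasi-likelihood test).

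*Prkg2* encodes the membrane-anchored cGMP-dependent kinase, known for intestinal secretion and for growth plate chondrocytes. It lies on chromosome 5 (GRCm38, 98929773 to 99037375). It was at 6.97, 6.38, 6.46 and 6.04 CPM in the controls and 3.15, 3.58, 2.50 and 3.33 CPM in the cKO group. The genotypes did not overlap, and the spread was small in both (SD 0.385 and 0.464 CPM). Over all genes tested, 12.3% had genotypes that did not overlap. *Prkg2* was 6.46 against 3.14 CPM on average, a log2 fold change of −1.04 (SE 0.14, 95% interval −1.34 to −0.74, adjusted p = 0.000883, edgeR quasi-likelihood test), and the exact two-sided permutation p of 0.029 was the smallest that 4 against 4 libraries can give. The direction held in each of 8 fits that left out 1 library, and the fold change stayed over 2 in 7 of them; without cKO replicate 3 the log2 fold change was −0.95 and without replicate 4 it was −1.07.

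*Prkg1* encodes the cytosolic kinase of smooth muscle, vessels and platelets, and it did not pass the test. It was at 111, 118, 98.7 and 116 CPM in the controls and 96.2, 115, 127 and 113 CPM in the cKO group, with a log2 fold change of 0.02 (95% interval −0.16 to 0.20, adjusted p = 0.898, edgeR quasi-likelihood test). Per kilobase, *Prkg2* was 10.6% ± 1.05 of the 2 kinases in control and 5.39% ± 1.07 in cKO uteri. The level of *Prkg1* was 8.52 ± 0.937 times that of *Prkg2* in control and 18.2 ± 4.65 times in cKO (per kilobase, SD, n = 4 each).

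*Pde5a* encodes the cGMP phosphodiesterase that sildenafil inhibits. It was at 156, 182, 133 and 145 CPM in the controls and 167, 171, 163 and 159 CPM in the cKO group, all within the control range. Its log2 fold change was 0.10 (95% interval −0.08 to 0.28, adjusted p = 0.503, edgeR quasi-likelihood test), whose upper bound is a rise of 1.22-fold. It shares exon sequence with the opposite-strand transcript *4930447N08Rik*.

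Around the 8 genes, 55 further genes of the pathway were read from the same fit: arginine supply, the tetrahydrobiopterin cofactor, NOS-binding proteins, soluble guanylate cyclase, natriuretic peptides and receptors, other cGMP phosphodiesterases, kinase targets and removal of S-nitrosothiols. Of these, 49 were tested, and 3 were higher and 2 lower at adjusted p under 0.05, against 5.34% of all genes (2.62% higher and 2.71% lower); 44 did not pass and 0 were past both thresholds. Their median log2 fold change was 0.03 (range −0.48 to 0.58). At an unadjusted p under 0.05 in edgeR there were 10 genes, against 21.2% of all genes. At an adjusted p under 0.05 DESeq2 called 6, against 9.04% of all genes, and limma-voom 4, against 4.98%, none of them past a fold change of 2.

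In arginine supply, 1 of 7 tested genes changed, against 5.34% of all genes. *Asl*, which splits argininosuccinate to arginine and fumarate right after ASS1, was at 36.8, 36.2, 34.2 and 32.3 CPM in the controls and 24.4, 25.4, 24.0 and 26.3 CPM in the cKO group. The groups did not overlap, and the log2 fold change was −0.48 (SE 0.07, adjusted p = 0.00122, edgeR quasi-likelihood test). It kept an adjusted p under 0.05 in all 8 fits that left out 1 library. The arginine transporters *Slc7a1* and *Slc7a2* (log2 fold changes 0.05 and 0.01) did not pass. None of the 6 cofactor genes passed in edgeR, DESeq2 or limma-voom, or at an unadjusted p under 0.05 (0 of 6), among them *Gch1*, the first enzyme of tetrahydrobiopterin synthesis (log2 fold change −0.19).

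Of the 7 tested NOS-binding proteins, 1 was lower, against 2.71% of all genes. *Dynll1*, a dynein light chain also named as an inhibitor of NOS1, was at 216, 220, 215 and 201 CPM in the controls and 172, 154, 135 and 193 CPM in the cKO group, with a log2 fold change of −0.38 (SE 0.09, adjusted p = 0.0322, edgeR quasi-likelihood test). The groups did not overlap, but the adjusted p stayed under 0.05 in only 2 of the 8 fits that left out 1 library. *Nostrin*, which traffics NOS3 in endothelium, was at 2.40, 2.05, 2.75 and 2.20 CPM in the controls and 3.84, 3.88, 3.45 and 2.87 CPM in the cKO group. It did not overlap either but missed the threshold (log2 fold change 0.58, adjusted p = 0.0600, edgeR quasi-likelihood test), while DESeq2 called it (adjusted p = 0.0254) and limma-voom did not (adjusted p = 0.0639).

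Soluble guanylate cyclase, the receptor of nitric oxide, did not pass in any of its 3 tested subunits (0 also at an unadjusted p under 0.05, in DESeq2 and in limma-voom). *Gucy1a1* had a log2 fold change of 0.11 (adjusted p = 0.573), *Gucy1a2* of −0.13 (adjusted p = 0.445) and *Gucy1b1* of −0.05 (adjusted p = 0.726, all in edgeR's quasi-likelihood test). Their levels were 66.3 ± 5.87, 31.5 ± 3.96 and 41.8 ± 2.98 CPM in the controls and 71.4 ± 10.5, 28.7 ± 2.55 and 40.3 ± 3.41 CPM in the cKO group. The fourth subunit, *Gucy1b2*, was under the filter on low counts, with 2, 3, 5 and 5 reads in control libraries and 0 in each cKO library. With no filter it was called lower (adjusted p = 0.0301, edgeR quasi-likelihood test), on these few reads.

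Of 5 tested natriuretic peptide and receptor genes, 1 was higher, against 2.62% of all genes. *Npr1*, the receptor cyclase for atrial and brain natriuretic peptide, was at 30.7, 34.3, 26.5 and 28.6 CPM in the controls and 42.6, 41.3, 39.5 and 32.2 CPM in the cKO group, and cKO replicate 4 lay inside the control range. The log2 fold change was 0.37 (SE 0.10, adjusted p = 0.0468, edgeR quasi-likelihood test), and it held an adjusted p under 0.05 in 2 of 8 fits that left out 1 library. The call was lost in limma-voom (adjusted p = 0.0555) and in edgeR without the robust setting (adjusted p = 0.0511). *Npr2*, the receptor of C-type natriuretic peptide, and *Npr3*, the clearance receptor, had log2 fold changes of 0.16 (adjusted p = 0.412) and 0.26 (adjusted p = 0.167) in the same edgeR quasi-likelihood test.

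Of the 8 other cGMP phosphodiesterases tested, 2 were higher, against 2.62% of all genes. Both are of the calcium/calmodulin-dependent PDE1 family, and 2 calls are too few for a result about it. *Pde1a* was at 12.5, 12.8, 9.99 and 11.7 CPM in the controls and 17.6, 17.1, 15.0 and 16.8 CPM in the cKO group, with no overlap (log2 fold change 0.50, SE 0.10, adjusted p = 0.0112, edgeR quasi-likelihood test). *Pde1b* was at 10.2, 12.6, 9.53 and 10.1 CPM in the controls and 15.7, 13.4, 14.0 and 13.0 CPM in the cKO group, again with no overlap (log2 fold change 0.40, SE 0.11, adjusted p = 0.0493, edgeR quasi-likelihood test). *Pde1a* passed in all 8 left-out fits and *Pde1b* in 2, and *Pde1b* was lost in edgeR without the robust setting (adjusted p = 0.0527). The third member of the family, *Pde1c*, had a log2 fold change of 0.39 from about 1 CPM and did not pass (SE 0.21, adjusted p = 0.314, edgeR quasi-likelihood test). None of the 10 kinase targets passed in edgeR, DESeq2 or limma-voom. At an unadjusted p under 0.05 in edgeR there were 2, against 21.2% of all genes. Those that did not pass included *Mrvi1*, *Vasp* and the potassium channel subunit *Kcnma1* (log2 fold changes 0.04, 0.06 and −0.20). *Pln*, the calcium pump inhibitor phospholamban, was at 24.5, 23.9, 25.8 and 25.3 CPM in the controls and 39.1, 33.4, 18.7 and 33.4 CPM in the cKO group (log2 fold change 0.32, adjusted p = 0.348), and without cKO replicate 3, its lowest library, it was called higher (log2 fold change 0.50, adjusted p = 0.00479, edgeR quasi-likelihood test). None passed of the 3 genes of nitrosothiol removal (0 at an unadjusted p under 0.05 and 0 in the other tools).

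**Figure D3:**
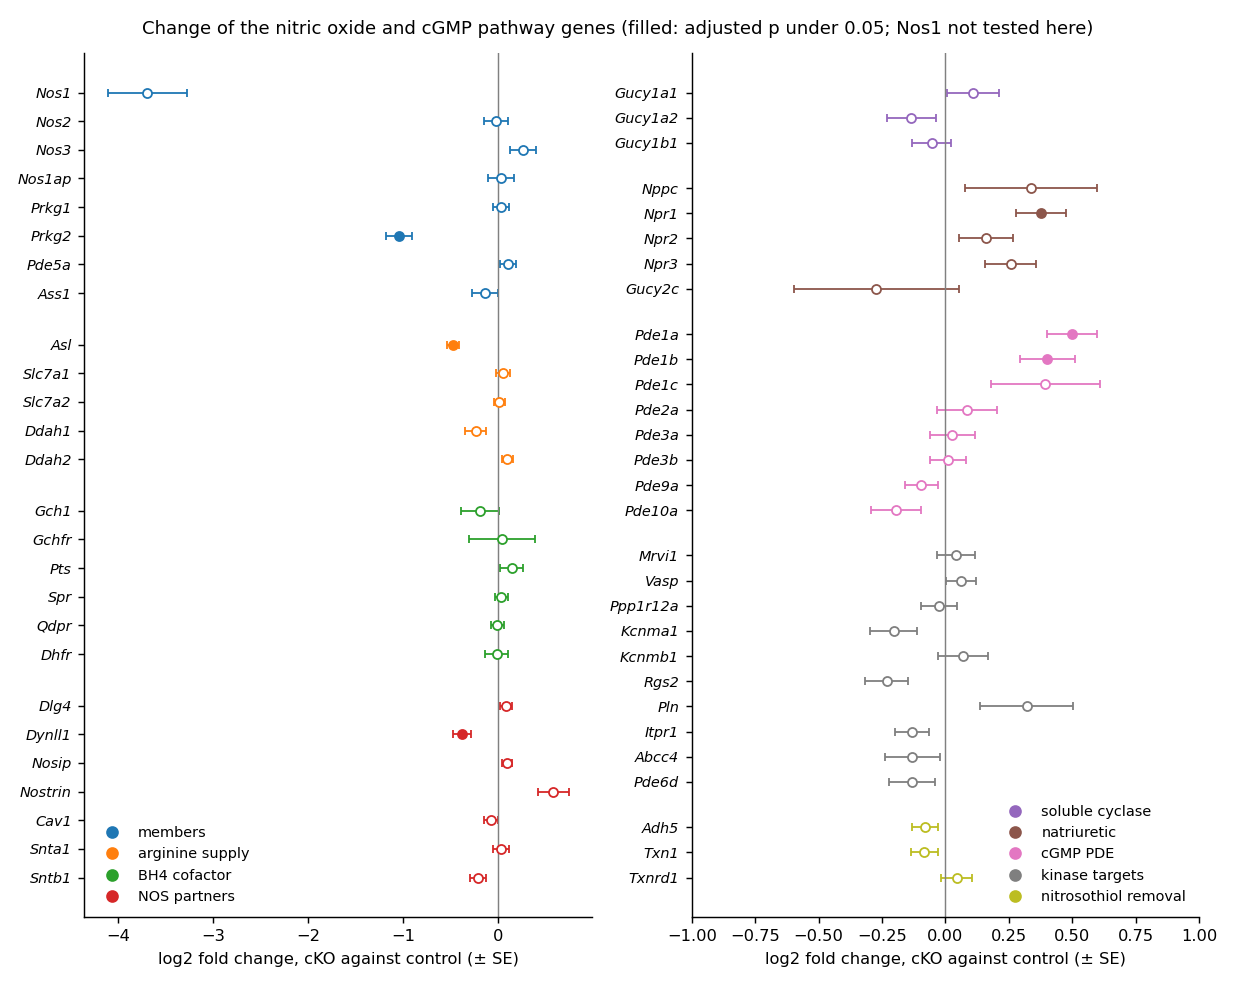
Log2 fold change of cKO against control (x axis, ± SE) for the 8 genes and the tested pathway genes reported here, colored by list, on separate x axes left and right. Filled points passed an adjusted p under 0.05 (*Prkg2*, *Asl*, *Dynll1*, *Npr1*, *Pde1a*, *Pde1b*); *Nos1* is drawn open because it was chosen for its fall.

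Markers of cell types were read beside these values. Over all genes tested, 5.34% passed in edgeR, 9.04% in DESeq2 and 4.98% in limma-voom, and 21.2% had an unadjusted p under 0.05 in edgeR. Summed levels of 8 endothelial markers were 730 to 914 CPM in the controls and 893, 966, 942 and 759 CPM in cKO replicates 1 to 4, and none of the 8 passed in edgeR, DESeq2 or limma-voom, though 4 had an unadjusted p under 0.05 in edgeR. Per 1000 CPM of these markers, *Nos3* was at 20.2 ± 1.23 CPM in the controls and 21.8 ± 3.15 CPM in the cKO group, with overlap (exact two-sided permutation p = 0.43). On the same scale *Npr1* was at 37.3 ± 1.33 and 43.7 ± 2.69 CPM without overlap (exact two-sided permutation p = 0.029), whereas *Nostrin*, at 2.96 ± 0.632 and 3.94 ± 0.282 CPM, overlapped (exact two-sided permutation p = 0.057). Per 10000 CPM of 8 smooth muscle markers, which summed to 7665 to 9750 CPM in the controls and 8493 to 9623 CPM in the cKO group, *Pde1a* was at 14.0 ± 0.994 and 18.3 ± 0.807 CPM without overlap (exact two-sided permutation p = 0.029). On that scale *Pde5a* was at 181.8 ± 5.89 and 182.3 ± 7.97 CPM and *Prkg1* at 132 ± 10.8 and 125 ± 20.6 CPM, both with overlap (exact two-sided permutation p = 0.91 and 0.6). None of the smooth muscle markers passed in edgeR or limma-voom, 1 did in DESeq2, and 2 had an unadjusted p under 0.05 in edgeR. These ratios were added after the values were seen. *Npr1* and *Pde1a* had already been called higher in the same libraries, so the p-values of their ratios are not separate support. Fat markers summed to 94.9, 221, 98.1 and 4.10 CPM in cKO replicates 1 to 4, and replicate 4 also had the lowest *Npr1* and *Nos3* of its group. Whether cell composition had a part in these results was not tested.

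**Figure D4:**
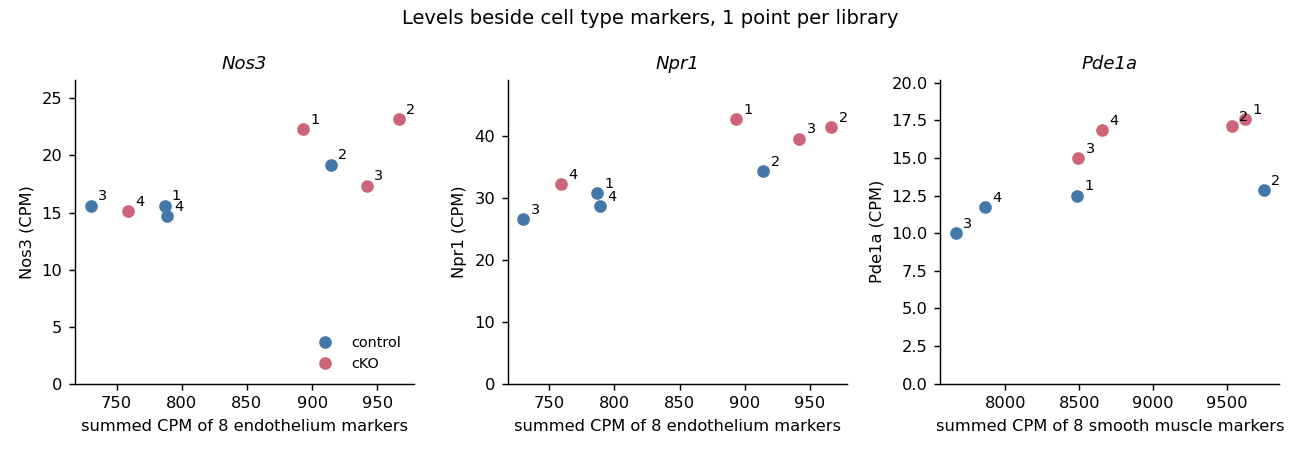
CPM of *Nos3* and *Npr1* against the summed CPM of 8 endothelial markers, and of *Pde1a* against 8 smooth muscle markers, 1 point per library with its replicate number (blue, control; red, cKO). *Pde1a* is higher in every cKO library than in any control, and cKO replicate 4 has the lowest endothelial sum and the lowest *Npr1* of its group.

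For *Nos1*, the neuronal markers were thin: 10 were listed, 4 were tested, none passed in edgeR, DESeq2 or limma-voom (0 at an unadjusted p under 0.05), *Chat* was at 0 in all libraries, and the sum was 8.38 to 9.44 CPM in the controls and 8.20 to 11.7 CPM in the cKO group. The 6 Schwann cell markers summed to 21.5 to 25.0 CPM in the controls and 27.0 to 34.4 CPM in the cKO group. Of these 6, 2 passed as higher in edgeR (2 in DESeq2, 1 in limma-voom, 5 at an unadjusted p under 0.05 in edgeR). As shares of all genes, the same calls made up 5.34% in edgeR, 9.04% in DESeq2, 4.98% in limma-voom and 21.2% at the unadjusted p. Skeletal muscle, where *Nos1* is also abundant, summed to 44.9 to 76.6 and 40.8 to 63.3 CPM (of 5 tested, 1 higher in edgeR and limma-voom, 2 called in DESeq2 and 4 at an unadjusted p under 0.05 in edgeR). *Acta1* made up most of that sum (log2 fold change −0.13), and the 4 at an unadjusted p had higher fitted values in cKO, with log2 fold changes of 0.80 (*Tnnt3*) to 1.46 (*Ckm*). Fat markers summed to 2.09 to 4.29 CPM in the controls and 4.10 to 221 CPM in the cKO group, where replicate 4 was at 4.10, and of 6 tested 1 was higher in edgeR and in limma-voom and 6 were called in DESeq2 and at an unadjusted p under 0.05 in edgeR. Stromal markers summed to 2793 to 3722 and 2973 to 3647 CPM, with *Hoxa10* and *Hoxa11* lower in edgeR (3 called in DESeq2, 2 in limma-voom, 3 at an unadjusted p under 0.05 in edgeR). The third at an unadjusted p, the collagen gene *Col1a1*, had a higher fitted value in cKO (log2 fold change 0.40, adjusted p = 0.129, edgeR quasi-likelihood test) and was the largest part of that sum. The 6 epithelial markers summed to 1075 to 1310 and 1237 to 1502 CPM, with none of 6 passing in edgeR (3 at an unadjusted p under 0.05, 1 in DESeq2, 0 in limma-voom). None of 6 macrophage markers passed in edgeR, DESeq2 or limma-voom (1 at an unadjusted p under 0.05 in edgeR), at 110 to 169 and 114 to 153 CPM. Of the neuronal markers, *Stmn2* and *Prph* made up most of the sum, while *Elavl3*, an RNA-binding protein of neurons, was at 0.158, 0.812, 0.321 and 0.220 CPM in the controls and 0.155, 0.301, 0.0616 and 0.0350 CPM in the cKO group, with overlap (log2 fold change −1.37, adjusted p = 0.256, edgeR quasi-likelihood test). The part of nerve cells in the fall of *Nos1* was not tested. *Prkg2* was low in cKO replicate 4 as in the others, at 3.33 CPM.

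Genes that ran most like *Nos1* across the 8 libraries were ranked among 14627 genes with a mean of at least 1 CPM in a genotype by the root mean square difference of log2(CPM + 0.1) after subtracting each gene's control mean. The nearest were *Cd7*, a surface protein of T and NK cells (difference 0.460, log2 fold change −3.02), *Dleu7* (0.523, −3.45), *Vit*, an extracellular matrix protein (0.587, −2.72), *Itgbl1*, an integrin beta-like protein (0.600, −3.97), and *Foxa2*, the forkhead factor of uterine glands (0.609, −2.91). The cKO values of *Nos1* rest on 1 to 7 reads, so the order of genes with close differences is not resolved. Likeness here rests mostly on a fall of similar size in all 4 cKO libraries, which *Nos1* was chosen for. The nearest genes on the chromosome did not pass the test: *Rfc5* (log2 fold change 0.07, adjusted p = 0.692), *Ksr2* (0.19, adjusted p = 0.767), *Fbxo21* (−0.04, adjusted p = 0.786) and *Tesc* (−0.08, adjusted p = 0.911), in edgeR's quasi-likelihood test, with *Fbxo21* starting 17930 bases from the end of *Nos1*.

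**Figure D5:**
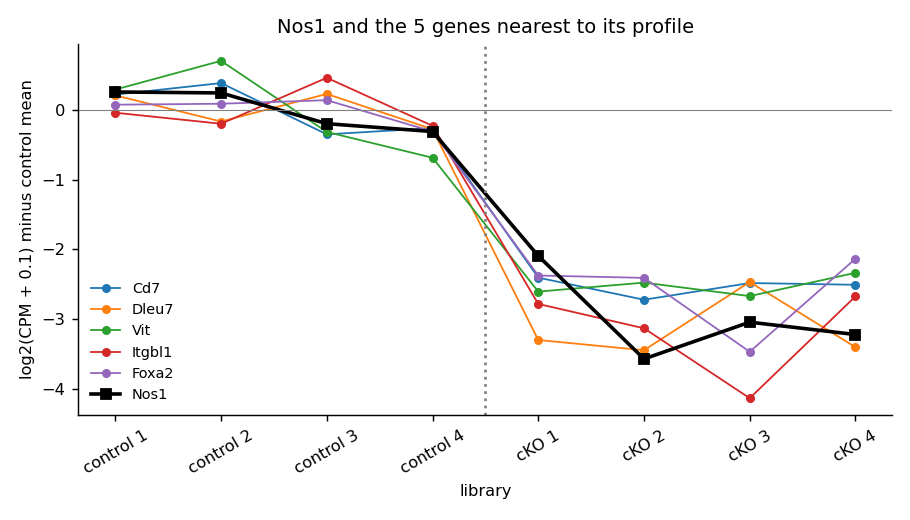
Log2(CPM + 0.1) minus the control mean (y axis) of *Nos1* (black squares) and the 5 genes nearest to its profile (colors), by library; lines join the points of 1 gene and libraries within a genotype have no order. All 6 lie below −2 in every cKO library and within 1 unit of 0 in every control library.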

How the data were processed

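RNA was measured by stranded mRNA sequencing of whole uteri from 4 control and 4 cKO mice at PD10, 1 library per mouse. Per the labels and the study's methods, the authors trimmed reads with Trimmomatic, checked them with FastQC, aligned them to GRCm38 with HISAT2 and deposited featureCounts read counts per Entrez gene; annotation release and strand setting are not given in the sources used here. The deposited table of the authors' own comparison was used only for gene symbols; its fold changes and p-values were not used.

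Counts were analysed with edgeR 4.0.16 (limma 3.58.1, R 4.3.3) after the settings of the study. These were CPM over 0.2 in at least 4 libraries, TMM scaling, the robust setting and Benjamini-Hochberg adjustment, here over 16658 genes. The quasi-likelihood test was chosen here, because the study's methods do not name the edgeR test. DESeq2 1.42.0 was an alternative. Standard errors are the log2 fold change over the square root of F. Exon lengths came from GENCODE M21 and positions from RefSeq GRCm38.p6. The pipeline was tested on simulated counts. Named genes were the 8 members, pathway genes passing, guanylate cyclase subunits, *Npr1* to *Npr3*, the 5 genes nearest *Nos1*, its chromosome neighbours and *Ezh2*; other pathway and marker genes named were chosen after their values were seen. Members and lists were chosen with earlier results of these data known. Pathway genes that did not pass are mostly given as counts, and 2 are not reported here. P-values of the fits weigh the difference between genotypes against the spread between these mice, with variability estimates shared across genes.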

Additional observations from a re-analysis of the deposited data

Results flagged for a closer look

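In cKO replicate 3, *Ass1* was at 4.77 CPM, while the other 3 cKO libraries lay at 3.81 to 3.85 CPM. The gap was 0.951 of the group's range, more than Dixon's 95% critical ratio for 4 samples allows. It was 1 of 36 sets of 4 libraries examined, and chance marks about 1 in 20. The cause was not tested.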

How the results depend on the processing

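Genes past both thresholds numbered 356 with the likelihood ratio test, 139 with a CPM over 1 filter, 22 with the 2-fold threshold inside the test, 889 by adjusted p alone and 20 with cKO replicate 4 alone against the controls, and 141 to 357 when 1 library was left out. Members past both thresholds numbered 1 with the threshold inside the test or with cKO replicate 4 alone, and 1 to 2 with 1 library left out; the 1 was *Nos1*, chosen for its fall, so these counts speak only of whether *Prkg2* passed. Pathway genes at adjusted p under 0.05 numbered 3 without the robust setting, 0 with cKO replicate 4 alone, and 2 to 6 with 1 library left out. The log2 fold change of *Nos1* was −3.13 with a prior count of 2 and −4.34 with cKO replicate 4 alone (−4.43 to −3.39 with 1 library left out). With cKO replicate 4 alone, which has the lowest fat markers of its group, is nearer to 2 of the controls than to the other cKO libraries and is assumed to vary like the controls, *Prkg2* was −0.95 (adjusted p = 0.148, edgeR quasi-likelihood test), *Nos3* −0.10 and *Nos1ap* −0.20, and *Prkg2* ranged from −1.11 to −0.95 with 1 library left out. Small uncalled changes turned sign with 1 library left out for *Nos1ap* (−0.043 to 0.10), *Nos2* (−0.096 to 0.034) and *Prkg1* (−0.041 to 0.093). The causes were not tested.

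The labels do not say whether replicate numbers pair the mice. Deviations of same-numbered libraries correlated at 0.07, 0.15, −0.04 and 0.25, and not every library correlated best with its own number. Such correlations cannot settle whether mice were paired. With the replicate block, 253 genes passed both thresholds and *Prkg2* and the 5 pathway genes kept their calls.

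Depth limits *Nos1* in cKO and *Gucy1b2*, where single reads decide a value, and a difference of 3 reads or fewer is not resolved.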

Other observations

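*Dleu7*, among the genes nearest to the *Nos1* profile, and *Gucy1b2*, the guanylate cyclase subunit with no read in cKO uteri, lie close together on chromosome 14, and were set side by side after their values were seen. *Gucy1b2* (GRCm38, 62372935 to 62456291) starts 79956 bases beyond the end of *Dleu7* (62276229 to 62292979). *Rnaseh2b*, a subunit of ribonuclease H2 that starts between them and overlaps the first bases of the *Gucy1b2* span (62332068 to 62372996), had a log2 fold change of −0.16 (adjusted p = 0.194, edgeR quasi-likelihood test). *Dleu7* was at 3.69, 2.82, 3.75 and 2.61 CPM in control and 0.233, 0.201, 0.493 and 0.210 CPM in cKO uteri, without overlap.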
